A study of Homo sapiens with 6 samples.

Results

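The clade A serpins are the 8 genes of the expression table whose symbol is SERPINA followed by a digit, out of 11456 genes in all: SERPINA1, SERPINA3, SERPINA4, SERPINA5, SERPINA6, SERPINA7, SERPINA10 and SERPINA11. Their mRNA was measured in HepG2-hCAR cells, a single-cell clone of HepG2, the human liver carcinoma line, in which a lentiviral cDNA encoding the nuclear receptor CAR (constitutive androstane receptor, gene NR1I3, human) is switched on by doxycycline. Cells of 1 group received vehicle (3 libraries) and cells of the other received doxycycline at 1 µg/ml (3 libraries), and both were taken at 72 h. Every library came from the same clone, and doxycycline was not given to cells lacking the inducible cDNA, so what the drug does by itself and what the receptor does cannot be told apart.

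Levels are given in FPKM, a fragment count divided by transcript length and by the total of mapped fragments, so each level is relative to its whole library. The libraries summed to 204298 to 209354 FPKM, and sequencing depth cannot be read from values scaled in this way and is unknown. NR1I3 stood at 3.15, 3.01 and 3.56 FPKM with vehicle and at 331, 317 and 316 FPKM with doxycycline. The labels call the cells human liver carcinoma cells. All 8 hepatocyte markers looked up were listed, with summed levels of 1310 to 1390 FPKM with vehicle and 584 to 647 FPKM with doxycycline. Albumin (ALB) itself was weak, at 1.77 to 1.93 FPKM with vehicle and 0.272 to 0.461 FPKM with doxycycline, and transthyretin (TTR) at 3.74 to 4.01 and 1.72 to 2.52 FPKM. The apolipoprotein gene APOB made up most of the hepatocyte sums, with means of 819 FPKM with vehicle and 444 FPKM with doxycycline. On average the hepatocyte markers were lower with doxycycline, as were the serpins described below, although the HNF4A libraries overlapped between the groups. All of these markers but APOB also count in gene lists below. The part of the hepatocyte markers in the serpin values was not tested. Of 5 leukocyte markers 3 were listed, with sums of 9.75 to 10.5 FPKM with vehicle and 7.0 to 8.63 FPKM with doxycycline. CD14 was at 0.0347 to 0.0853 FPKM with vehicle and 1.85 to 2.00 FPKM with doxycycline. The 3 endothelial markers were not among the genes analysed here. Of 4 stromal markers only PDGFRB was listed, at 0.798 to 0.966 FPKM with vehicle and 1.40 to 1.47 FPKM with doxycycline. In bulk RNA a smaller share of cells that express a gene and less RNA per cell cannot be told apart.

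Serpins are a superfamily of proteins that share a fold with an exposed reactive loop. In an inhibitory serpin a protease cleaves this loop, and the serpin then snaps into a relaxed state that traps the enzyme in a covalent complex. The hepatocyte makes most clade A serpins of the blood. Among them are protease inhibitors of inflammation, of kinin release and of coagulation, and also carriers that have lost inhibition and transport hormones. Most human clade A genes lie side by side in a cluster on the long arm of chromosome 14 that arose by gene duplication.

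All 8 mRNAs were lower with doxycycline, and they were lower by very different amounts. SERPINA11 and the cortisol carrier SERPINA6 were left at 24.7% and 24.9% of their vehicle mean. SERPINA4, SERPINA7, SERPINA10 and SERPINA3 were left at 38.2% to 43.7%, SERPINA1 at 65.4%, and SERPINA5 at 89.3%. The members were chosen by symbol with their FPKM in both groups already known, so these values describe them and are no test of them. In 8 of 8 genes every vehicle library was above every doxycycline library, against 47.1% of the 10469 genes tested whose groups did not overlap in either direction and 22.3% with doxycycline below vehicle. In the fit across all genes (limma on log2(FPKM + 1), called at a Benjamini-Hochberg adjusted p below 0.05) 7 of the 8 were called, all lower, where 28.8% of all genes were called 13.6% lower and 15.2% higher. SERPINA1 was the member not called. A mean at or below 50% of vehicle was found for 6 of the 8 and for 1.81% of the genes tested. The median log2 fold change, a difference of mean log2(FPKM + 1), was -1.04 over the 8 members and 0.01 over all genes tested. All 8 passed the filter of a mean of at least 1 FPKM over the 6 libraries. The table lists no gene whose larger group mean is below 0.50 FPKM, so other clade A genes were not analysed here.

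**Figure D1:**
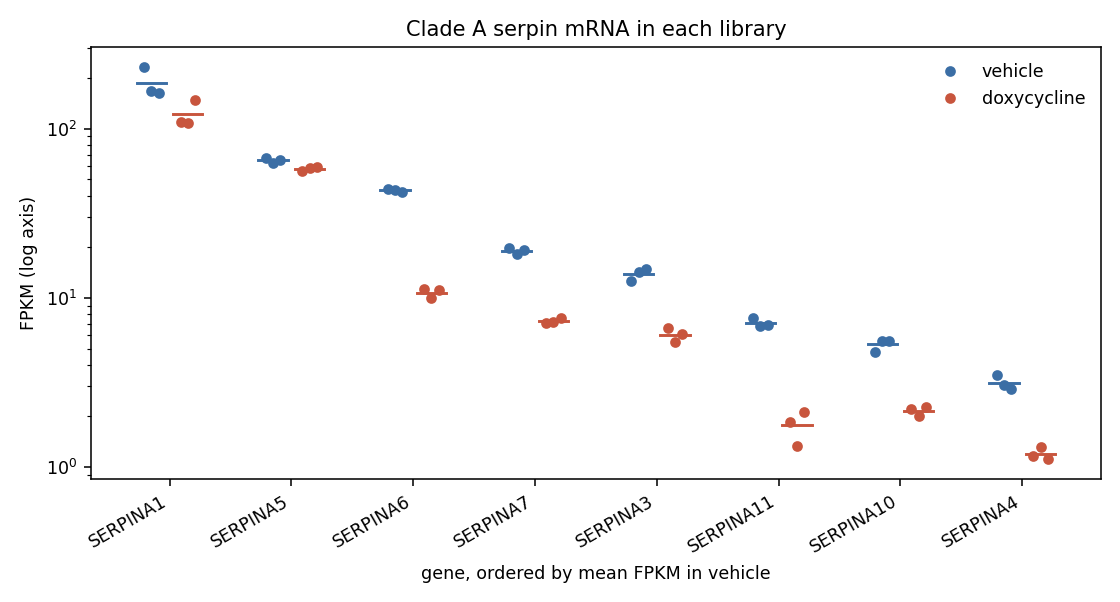
FPKM (log axis) of the 8 clade A serpins in each library, with vehicle and doxycycline libraries side by side as points and group means as bars (n = 3 libraries per group). The doxycycline points lie below the vehicle points for every gene, by the widest margin for SERPINA6 and SERPINA11 and the narrowest for SERPINA5.

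Because most of these mRNAs were lower together, the DNA before their starts is shown here. RefSeq (GRCh38.p14, another build than that of the expression table) had windows for 8 of 8 members, 10 windows in all, since SERPINA1 and SERPINA10 have more than 1 start. The 250 bases before each start were searched on both strands. The letters TGTTTNC, the core of the site of the FOXA factors, which open chromatin at liver genes, occurred in 3 of the 10 windows, those of 3 members, and in 15.5% of the 35116 windows of all genes. Those 3 members are printed 5′ to 3′ along the gene's own strand, with TGTTTNC or its reverse complement in capitals.
SERPINA6, chr14:94323337-94323586, minus strand: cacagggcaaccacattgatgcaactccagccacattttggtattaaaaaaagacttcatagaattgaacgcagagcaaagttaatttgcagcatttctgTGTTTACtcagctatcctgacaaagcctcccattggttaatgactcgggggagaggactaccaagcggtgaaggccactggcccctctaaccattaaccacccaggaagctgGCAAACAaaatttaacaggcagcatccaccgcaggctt
SERPINA11, chr14:94452801-94453050, minus strand: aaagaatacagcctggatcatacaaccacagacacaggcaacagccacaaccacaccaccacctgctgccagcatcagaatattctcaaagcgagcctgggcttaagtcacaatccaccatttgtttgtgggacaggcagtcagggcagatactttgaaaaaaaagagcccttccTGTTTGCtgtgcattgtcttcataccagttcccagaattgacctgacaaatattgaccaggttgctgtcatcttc
SERPINA1, chr14:94388603-94388852, minus strand: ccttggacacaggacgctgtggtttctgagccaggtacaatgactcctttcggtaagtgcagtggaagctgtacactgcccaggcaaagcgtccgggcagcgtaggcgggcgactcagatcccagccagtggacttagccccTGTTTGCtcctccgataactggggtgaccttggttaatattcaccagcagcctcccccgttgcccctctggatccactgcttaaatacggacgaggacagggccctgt

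SERPINA6 held 2 copies, beginning 150 and 38 bases before the start. SERPINA11 and SERPINA1 held 1 each, at 75 and 108 bases. For SERPINA1 the copy was in the window of the downstream of its 2 RefSeq starts. The windows of SERPINA3, SERPINA4, SERPINA5, SERPINA7 and SERPINA10 had no TGTTTNC. So the letters were present in members left at 24.7% (SERPINA11), 24.9% (SERPINA6) and 65.4% (SERPINA1). They were not found in members left at 38.2% (SERPINA4), 38.5% (SERPINA7), 40.6% (SERPINA10), 43.7% (SERPINA3) and 89.3% (SERPINA5). Whether the members differ from all windows in these letters was not tested.

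Other motifs were searched in the same way. Each member named here had the letters in 1 window. The STAT letters TTCNNNGAA were in SERPINA5, SERPINA6 and SERPINA11 (6.57% of all windows). These members too include SERPINA6 and SERPINA11, left lowest, and also SERPINA5, the least altered. The C/EBP letters TTGCNNAA were in SERPINA7 and SERPINA10 (9.05%), and the HNF4 letters CAAAGTNCA were in SERPINA7 only (0.94%). No window of a member had 2 copies of AGNTCA in the same direction with 4 bases between them, a repeat of the kind that CAR and the pregnane X receptor bind, and 0.094% of all windows did. Motifs may overlap each other. A match is a description of letters, and the lack of one says only that those letters are not in this window.

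The first group by role are inhibitors of proteases released in inflammation. SERPINA1, alpha-1 antitrypsin, which inhibits neutrophil elastase, was the most abundant member per length (ENSG00000197249, GRCh37 chromosome 14, 94843084 to 94857030, minus strand). It was at 231, 166 and 163 FPKM in vehicle replicates 1 to 3 and at 110, 108 and 148 FPKM in doxycycline replicates 1 to 3. The groups did not overlap, but vehicle replicate 1 and doxycycline replicate 3 each stood well above the other 2 libraries of their group. The means were 187 ± 38.8 and 122 ± 22.5 FPKM (mean ± SD over 3 libraries in each group, here and below), a ratio of 1.53. The ratio was 1.35 without vehicle replicate 1 and 1.71 without doxycycline replicate 3, and without doxycycline replicate 3 the gene was called. Its highest vehicle library was 1.42 times its lowest, a wider span than in 93.8% of the genes with a mean of at least 10 FPKM. SERPINA3, alpha-1 antichymotrypsin, an acute phase inhibitor of cathepsin G and chymase, was weaker (ENSG00000196136, chromosome 14, 95078714 to 95090392, plus strand). It was at 12.6, 14.3 and 14.7 FPKM with vehicle and 6.61, 5.48 and 6.10 FPKM with doxycycline. The lowest vehicle library was 1.91 times the highest doxycycline library. The means were 13.9 ± 1.10 and 6.06 ± 0.569 FPKM, a level 2.29-fold lower with doxycycline.

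The whole SERPINA3 locus lies inside a second listed protein-coding gene on the same strand, AL049839.2 (95058395 to 95090983), which also overlaps the end of SERPINA5. Fragments from their shared 11679 bases may have been divided between them. AL049839.2 fell from 4.23 ± 0.639 to 2.35 ± 0.267 FPKM (limma adjusted p = 0.00649). The sum of SERPINA3 and AL049839.2 was 17.6, 18.2 and 18.5 FPKM with vehicle and 8.78, 8.14 and 8.34 FPKM with doxycycline, 2.15-fold lower. The direction was the same, and the size about the same, with both entries added together. The sum is made up mostly of SERPINA3, so it cannot show how the fragments were divided.

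SERPINA4, kallistatin, which inhibits tissue kallikrein, was the weakest member (ENSG00000100665, chromosome 14, 95027428 to 95036250, plus strand). It was at 3.49, 3.06 and 2.89 FPKM with vehicle and 1.17, 1.32 and 1.11 FPKM with doxycycline. All 3 doxycycline libraries were close together and under the lowest vehicle library. The means were 3.14 ± 0.310 and 1.20 ± 0.108 FPKM, 2.62-fold lower. At levels this low the pseudocount matters: the log2 fold change was -0.91 with a pseudocount of 1 and -1.32 with a pseudocount of 0.1.

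Coagulation is the field of the next members. SERPINA5, protein C inhibitor, which blocks activated protein C and several other proteases, was the second most abundant member and the least altered (ENSG00000188488, chromosome 14, 95027779 to 95059457, plus strand). It was at 66.8, 62.5 and 65.4 FPKM with vehicle and 56.2, 58.7 and 59.1 FPKM with doxycycline. The groups were apart by little, the lowest vehicle library being 1.06 times the highest doxycycline library. The means were 64.9 ± 2.21 and 58.0 ± 1.53 FPKM, 1.12-fold lower, and 20.0% of the genes tested had a lower log2 fold change. Leaving out vehicle replicate 1 or 3 or doxycycline replicate 1 or 2 ended its call. SERPINA5 overlaps SERPINA4 by 8472 bases on the same strand, so the 2 may also share fragments. The sum of both was 68.1 ± 2.39 and 59.2 ± 1.55 FPKM, 1.15-fold lower, and is made up almost wholly of SERPINA5. SERPINA10, the protein Z-dependent inhibitor of factor Xa, opens the cluster (ENSG00000140093, chromosome 14, 94746792 to 94759608, minus strand). It was at 4.79, 5.57 and 5.58 FPKM with vehicle and 2.20, 2.01 and 2.25 FPKM with doxycycline. The groups were well apart, with means of 5.31 ± 0.458 and 2.16 ± 0.131 FPKM, 2.47-fold lower.

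The hormone carriers of the family are SERPINA6 and SERPINA7, serpins without known inhibitory action. SERPINA6, corticosteroid-binding globulin, carries cortisol in plasma (ENSG00000170099, chromosome 14, 94770585 to 94789731, minus strand). It was at 43.9, 43.4 and 42.2 FPKM with vehicle and 11.2, 9.94 and 11.1 FPKM with doxycycline. Both groups were tight, and the lowest vehicle library was 3.77 times the highest doxycycline library, the widest gap of the 8 members. The means were 43.1 ± 0.868 and 10.7 ± 0.689 FPKM, 4.02-fold lower, and only 11 of the 10469 genes tested had a lower log2 fold change. Among all 11456 genes its rank by mean level went from 726 with vehicle to 3655 with doxycycline. SERPINA7, thyroxine-binding globulin, is the member outside the cluster (ENSG00000123561, chromosome X, 105276433 to 105282729, minus strand). It was at 19.6, 18.1 and 19.2 FPKM with vehicle and 7.11, 7.23 and 7.58 FPKM with doxycycline. Its means of 19.0 ± 0.805 and 7.31 ± 0.242 FPKM differed 2.60-fold, within the range of the chromosome 14 members. SERPINA11, a secreted serpin of which little is known, was at 7.62, 6.84 and 6.92 FPKM with vehicle and 1.85, 1.33 and 2.11 FPKM with doxycycline (ENSG00000186910, chromosome 14, 94908801 to 94919127, minus strand). The groups were far apart although the doxycycline libraries differed among themselves by up to 1.58 times. Its means of 7.13 ± 0.427 and 1.76 ± 0.396 FPKM differed 4.05-fold, and the ratio ranged from 3.60 to 4.48 when single libraries were left out.

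The order of the members by level changed little. With vehicle it ran SERPINA1, SERPINA5, SERPINA6, SERPINA7, SERPINA3, SERPINA11, SERPINA10 and SERPINA4, and no neighbours in that order had overlapping libraries. With doxycycline SERPINA10 and SERPINA11 changed places, and their libraries overlapped, while all other neighbours stayed apart. The proportions shifted more. SERPINA6 was 0.665 ± 0.0257 times SERPINA5 with vehicle and 0.185 ± 0.0151 times SERPINA5 with doxycycline. The 8 genes summed to 343 ± 40.7 FPKM with vehicle and 209 ± 24.3 FPKM with doxycycline. SERPINA1 made up 54.0 ± 4.59% of that sum with vehicle and 58.0 ± 3.78% with doxycycline, SERPINA5 19.1 ± 1.76% and 27.9 ± 2.72%, and SERPINA6 12.7 ± 1.29% and 5.16 ± 0.511%.

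Of the 8 genes 7 lie on chromosome 14 in an interval of 344 kb (94746792 to 95090392, GRCh37). SERPINA10, SERPINA6, SERPINA1 and SERPINA11 are on the minus strand, and SERPINA4, SERPINA5 and SERPINA3 follow on the plus strand. Neither position nor strand ordered the levels left. The minus-strand genes ranged from 24.7% (SERPINA11) to 65.4% (SERPINA1), and the plus-strand genes from 38.2% (SERPINA4) to 89.3% (SERPINA5). SERPINA4 and SERPINA5, which overlap, were 2.62-fold and 1.12-fold lower.

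**Figure D2:**
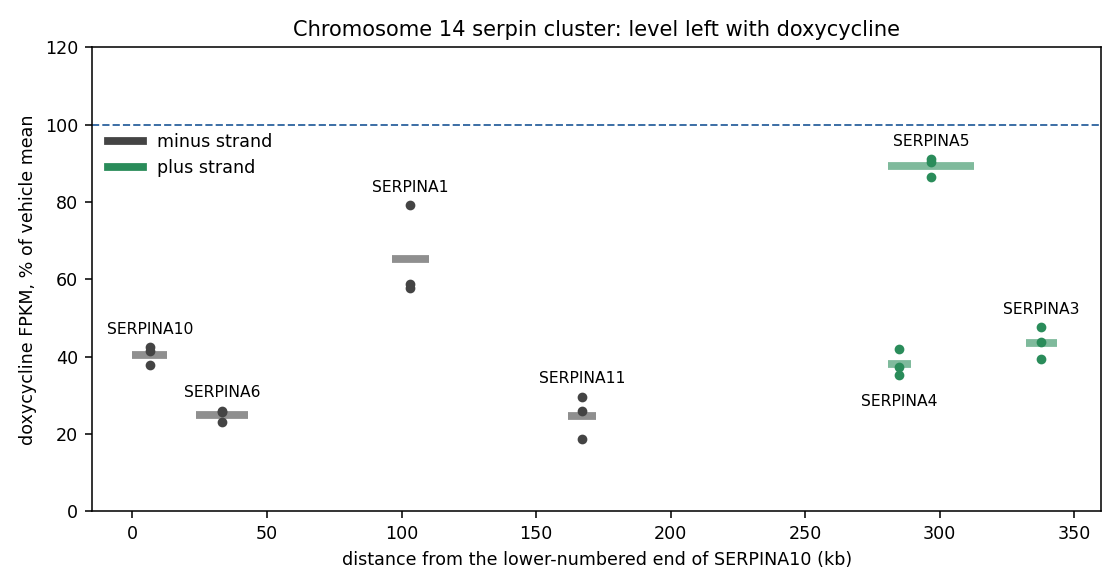
FPKM with doxycycline as a percentage of the vehicle mean for the 7 clade A serpins of chromosome 14, against distance in kb along the cluster. Points are the 3 doxycycline libraries, bars span each gene at its mean, colour gives the strand, and the dashed line is the vehicle mean. SERPINA6 and SERPINA11 lie lowest, at 24.9% and 24.7%, and SERPINA5 highest, at 89.3%, next to its overlapping neighbour SERPINA4 at 38.2%.

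Genes around the cluster that are not clade A serpins were called about as often as genes in general. Within 1 Mb on either side of it, and inside it, 13 other genes were listed. Only 1 of them, AL049839.2, overlaps the interval of the cluster. It was called lower, and it may share fragments with SERPINA3. Of the 11 tested, 3 were called, which is 27.3% against 28.8% of all genes, and the median log2 fold change was -0.12. Besides AL049839.2, ASB2, a ubiquitin ligase adaptor, fell from 1.57 ± 0.145 to 1.07 ± 0.0901 FPKM (limma adjusted p = 0.0157) and its call was lost when doxycycline replicate 1 or 3 was left out. OTUB2, a deubiquitinase, rose from 1.97 ± 0.238 to 3.08 ± 0.204 FPKM. PPP4R4, which ends next to SERPINA10, was at 1.94 ± 0.223 and 1.62 ± 0.115 FPKM and was not called. DICER1, the nuclease that matures microRNAs, was at 12.3 ± 1.67 and 10.1 ± 0.309 FPKM, and GLRX5, a mitochondrial iron-sulfur protein, at 24.8 ± 0.322 and 22.7 ± 1.60 FPKM. DICER1 and GLRX5 were not called, although the libraries of both did not overlap. BTBD7 (4.21 ± 0.511 and 4.56 ± 0.438 FPKM), DDX24 (7.84 ± 0.220 and 8.24 ± 0.428 FPKM), CLMN (4.34 ± 0.143 and 4.60 ± 0.320 FPKM), IFI27L1 (3.15 ± 0.404 and 2.74 ± 0.112 FPKM) and IFI27L2 (2.55 ± 0.427 and 3.19 ± 0.682 FPKM) were not called. PRIMA1 and SYNE3, both under 1 FPKM on average, were not tested.

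Serpins of other clades did not share 1 direction. Of 12 listed, 11 were tested, 3 rose, 5 fell and 3 did not pass (72.7% called, against 28.8% of all genes). The median log2 fold change was -0.24. Those that fell were the secreted inhibitors of coagulation and fibrinolysis SERPINC1, SERPIND1 and SERPINF2, the collagen chaperone SERPINH1, and SERPINI1, neuroserpin. SERPINC1, antithrombin, fell from 4.31, 4.55 and 3.38 FPKM to 1.06, 1.22 and 1.28 FPKM (3.45-fold, limma adjusted p = 0.000438). SERPIND1, heparin cofactor II, fell from 56.7, 56.0 and 55.5 FPKM to 26.4, 27.2 and 27.6 FPKM (2.07-fold). SERPINF2, the plasmin inhibitor alpha-2 antiplasmin, was at 41.5, 25.3 and 26.4 FPKM with vehicle and 17.7, 12.2 and 9.25 FPKM with doxycycline. Vehicle replicate 1 was its highest library, as it was for SERPINA1, and without that library the SERPINF2 call ended, as it did without doxycycline replicate 2 or 3 (limma adjusted p from 0.00473 to 0.0657 over the alternatives). SERPINH1 fell from 10.5 ± 0.447 to 7.92 ± 0.358 FPKM and SERPINI1 from 5.12 ± 0.528 to 3.14 ± 0.222 FPKM.

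Of the clade B inhibitors, which act inside cells, SERPINB9 and SERPINB1 rose. SERPINB9, which blocks granzyme B, rose from 6.45, 6.30 and 6.16 FPKM to 16.4, 15.7 and 15.7 FPKM (2.53-fold, limma adjusted p = 1.61e-05). SERPINB1, an inhibitor of neutrophil proteases inside cells, rose from 25.5 ± 0.897 to 47.0 ± 1.35 FPKM. SERPINB8 was under the level tested, at 0.308 ± 0.0584 and 0.631 ± 0.0519 FPKM, and SERPINB6 was at 21.0 ± 0.393 and 20.3 ± 3.81 FPKM and not called. The third gene that rose was SERPINE2, protease nexin 1, at 13.7 ± 1.78 and 20.3 ± 3.85 FPKM. Its call was lost when vehicle replicate 1 or 2 or doxycycline replicate 2 or 3 was left out (limma adjusted p from 0.0102 to 0.116). SERPINF1, pigment epithelium-derived factor, was at 39.2 ± 2.05 and 34.2 ± 11.6 FPKM, and its libraries overlapped between the groups. No test of the difference between clades was made.

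**Figure D3:**
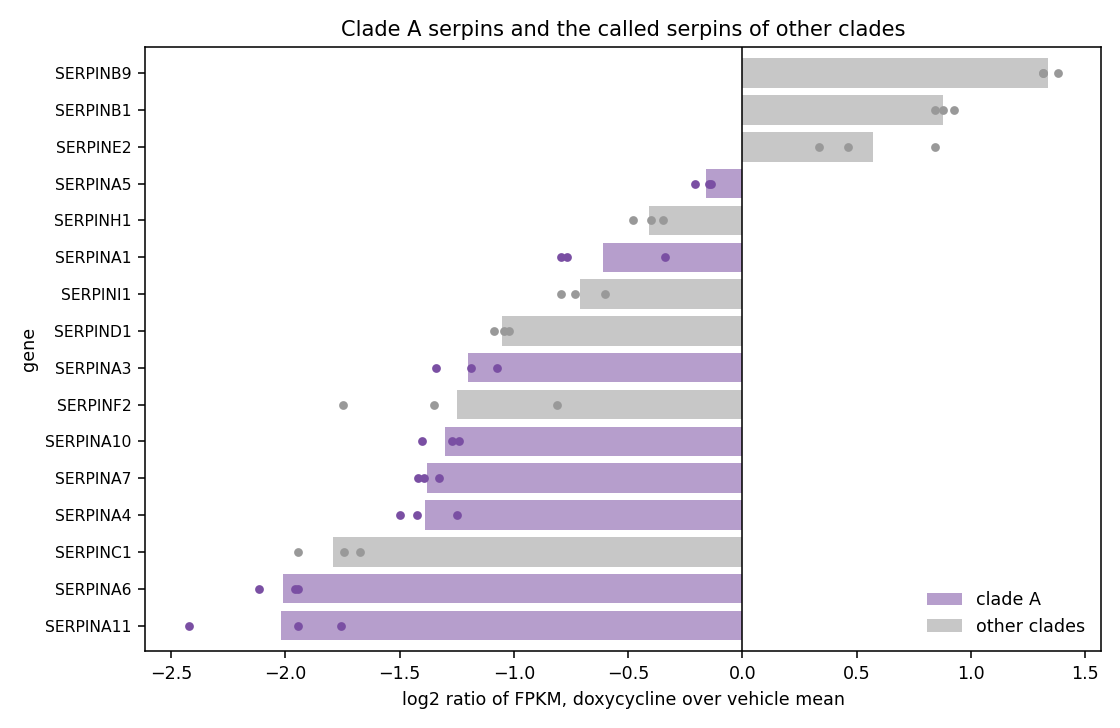
Log2 ratio of FPKM, doxycycline over the vehicle mean, for the 8 clade A serpins and the 8 serpins of other clades that limma called. Bars give the ratio of the means and points the 3 doxycycline libraries. All 8 clade A genes lie below 0, from SERPINA5 at -0.16 to SERPINA11 at -2.02, while other clades span SERPINC1 at -1.79 to SERPINB9 at 1.34.

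Proteases listed as bound by clade A serpins or as sharing their plasma cascades were mostly lower too. Of 25 on the list 10 were in the table and 9 were tested. Of these 6 fell and 2 rose (88.9% called, against 28.8% of all genes), with a median log2 fold change of -0.36. The clotting proteases F11 (2.51 ± 0.118 to 0.865 ± 0.0916 FPKM), F7 (2.87 ± 0.204 to 1.06 ± 0.322 FPKM) and F10 (16.9 ± 0.289 to 9.09 ± 0.350 FPKM) fell. F10 is the zymogen of the enzyme that SERPINA10 inhibits. TMPRSS2, a transmembrane protease, rose from 2.63 ± 0.198 to 8.72 ± 0.0602 FPKM (3.32-fold, limma adjusted p = 2.44e-05). PLAU, the other gene that rose, passed the filter on low values only through its doxycycline libraries, and F11 only through its vehicle libraries. Neutrophil elastase and cathepsin G, the classic targets of SERPINA1 and SERPINA3, are products of myeloid cells and were not analysed here.

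Plasma proteins of the acute phase, the class to which SERPINA1 and SERPINA3 belong, were lower. Of 16 tested acute phase genes other than serpins, 14 fell and 2, C1S and C4BPA, did not pass (87.5% called, against 28.8% of all genes). Leaving out single libraries gave 11 to 12 called genes. The calls of FN1, C3 and CP, left at 89.6%, 91.3% and 82.4% of vehicle, were lost in 7, 5 and 4 of 13 alternatives. The median log2 fold change was -0.68. HP, SAA4 and HAMP, counted among those that fell, passed the filter on low values only through their vehicle libraries. FGA, the fibrinogen alpha chain, had the largest decrease on the log2(FPKM + 1) scale, which understates weak genes such as HP, at 95.4, 43.0 and 91.0 FPKM with vehicle and 24.6, 26.7 and 26.1 FPKM with doxycycline. Its call ended without doxycycline replicate 1 (limma adjusted p from 0.00015 to 0.0505 over the alternatives). FGG, the fibrinogen gamma chain, fell from 99.1 ± 2.39 to 46.4 ± 0.600 FPKM, HP, haptoglobin, from 2.10 ± 0.605 to 0.492 ± 0.0258 FPKM, and C4BPB, a complement regulator, from 15.6 ± 0.787 to 6.96 ± 0.131 FPKM. Proteins that decline in the acute phase or carry hormones, vitamins and metals were lower as well. Of 8 tested 7 fell and 1 rose (100% called, against 28.8% of all genes), with a median of -1.18. ALB passed the filter on low values only through its vehicle libraries and was not tested when any of these was left out. AHSG (551 ± 47.8 to 102 ± 8.36 FPKM), APOA1 (294 ± 17.2 to 85.6 ± 3.41 FPKM), RBP4 (64.2 ± 4.72 to 19.7 ± 3.54 FPKM) and TF (149 ± 1.42 to 60.5 ± 4.41 FPKM) had the largest changes on that scale, although ALB, a weak gene, fell 5.00-fold in FPKM. IGFBP2, named after its values were seen, rose from 8.06 ± 0.580 to 16.3 ± 0.382 FPKM. SHBG, the carrier of sex steroids, was listed but was under the level tested.

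The genes listed for interleukin 6 family signalling, the pathway that induces acute phase serpins, were called about as often as genes in general. The list also held the interleukin 1 receptor genes IL1R1 and IL1RAP, neither of them called. Of 17 tested 4 rose, 2 fell and 11 did not pass (35.3% called, against 28.8% of all genes), with a median log2 fold change of 0.10, and 3 were called in place of 6 without vehicle replicate 3. LIF, a cytokine of the family, rose from 4.29 ± 0.413 to 8.57 ± 0.253 FPKM. SOCS1, a feedback inhibitor, fell from 2.63 ± 0.435 to 1.11 ± 0.0498 FPKM, and LIFR, a receptor subunit, from 1.74 ± 0.0977 to 1.01 ± 0.0958 FPKM. STAT3, which carries the signal to acute phase genes, was at 8.24 ± 0.174 and 8.90 ± 0.264 FPKM and was not called.

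Among 16 tested transcription factors known to act at liver serpin or acute phase genes 5 fell, 1 rose and 10 did not pass, with a median log2 fold change of -0.21. The share called, 37.5%, was not far from the 28.8% of all genes. FOXA3, one of the FOXA factors, fell from 13.3 ± 0.341 to 7.27 ± 0.499 FPKM, and NR5A2, a nuclear receptor of liver, from 3.47 ± 0.0841 to 2.29 ± 0.0582 FPKM. The other FOXA genes, named after their values were seen, were not called in the fit with all 6 libraries. Over the alternatives the limma adjusted p ran from 0.0421 to 0.22 for FOXA1 and from 0.00019 to 0.219 for FOXA2. FOXA1 was at 4.23 ± 0.524 and 3.32 ± 0.381 FPKM (limma adjusted p = 0.0918). FOXA2 was at 9.01, 33.0 and 30.9 FPKM with vehicle and 8.66, 7.99 and 7.62 FPKM with doxycycline (limma adjusted p = 0.0908), so vehicle replicate 1 lay near the doxycycline libraries. HNF4A was at 7.63, 7.77 and 8.51 FPKM with vehicle and at 3.65, 4.00 and 8.24 FPKM with doxycycline, so doxycycline replicate 3 lay among the vehicle libraries. HNF4A was not called with all 6 libraries, and its limma adjusted p ran from 0.00142 to 0.331 over the alternatives. CEBPB, an acute phase factor, rose from 36.4 ± 0.657 to 46.8 ± 3.27 FPKM, and CEBPA was at 18.3 ± 0.838 and 16.0 ± 2.84 FPKM and was not called. Whether any of these levels bears on the serpin mRNAs was not tested.

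Glucocorticoid handling was looked at beside the cortisol carrier SERPINA6. Of 9 tested genes 1 fell and 1 rose (22.2% called, against 28.8% of all genes). H6PD, which supplies cofactor to cortisol-forming reductase, fell from 15.3 ± 0.172 to 13.6 ± 0.281 FPKM, and its call was lost when vehicle replicate 3 was left out (limma adjusted p from 0.0110 to 0.0508). The call of DUSP1, a phosphatase at 12.5 ± 0.463 and 15.5 ± 1.61 FPKM, was lost in 6 of 13 alternatives (limma adjusted p from 0.00927 to 0.103). The receptor gene NR3C1 was at 5.42, 5.37 and 3.09 FPKM with vehicle and 5.46, 5.28 and 4.78 FPKM with doxycycline and was not called. Another 5 listed genes, named after their values were seen, were under the level tested. In all 5 the groups did not overlap, against 47.1% of the genes tested. The share among genes under that level was not computed. KLF9, PCK1 and TSC22D3 were higher with doxycycline, and PER1 and TAT were lower. KLF9, a glucocorticoid-induced transcription factor, was at 0.0542, 0.0478 and 0.0129 FPKM with vehicle and 1.43, 1.19 and 1.10 FPKM with doxycycline, and PCK1, a gluconeogenic enzyme, was at 0.157, 0.239 and 0.140 FPKM and 1.20, 0.847 and 1.01 FPKM. TSC22D3, a glucocorticoid-induced leucine zipper protein, was at 0.388 ± 0.143 and 0.662 ± 0.118 FPKM. PER1, a clock gene, was at 1.20 ± 0.104 and 0.584 ± 0.0752 FPKM, and TAT, tyrosine aminotransferase, at 0.733 ± 0.0553 and 0.388 ± 0.109 FPKM.

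Secreted serpins pass through the endoplasmic reticulum, where lectin chaperones fold them and misfolded alpha-1 antitrypsin is retained and degraded. Of 31 tested genes of this quality control and export 9 fell, 4 rose and 18 did not pass (41.9% called, against 28.8% of all genes), with a median log2 fold change of -0.08. Leaving out single libraries gave 9 to 13 called genes. LMAN1, the cargo receptor that exports alpha-1 antitrypsin, fell from 76.7 ± 2.35 to 61.7 ± 1.48 FPKM (limma adjusted p = 0.00128). EDEM1, which directs misfolded glycoproteins to degradation, rose from 14.1 ± 0.732 to 19.1 ± 0.655 FPKM, and SQSTM1, an autophagy receptor, from 41.3 ± 2.09 to 61.0 ± 1.75 FPKM. SURF4, another cargo receptor, was at 62.4, 98.3 and 106 FPKM with vehicle and 53.3, 53.2 and 50.7 FPKM with doxycycline, a call lost in 6 of 13 alternatives (limma adjusted p from 0.000364 to 0.109). Of 8 tested receptors that clear serpin-protease complexes or plasma glycoproteins 4 rose and 3 fell (87.5% called, against 28.8% of all genes). The asialoglycoprotein receptor subunits ASGR1 (58.6 ± 2.49 to 23.4 ± 1.60 FPKM) and ASGR2 (69.8 ± 1.92 to 37.7 ± 5.13 FPKM) fell, while the lipoprotein receptor family genes VLDLR (0.559 ± 0.0573 to 1.53 ± 0.0846 FPKM) and LRP8 (4.07 ± 0.316 to 5.53 ± 0.418 FPKM) rose. VLDLR passed the filter on low values only through its doxycycline libraries and was not tested when any of these was left out.

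**Figure D4:**
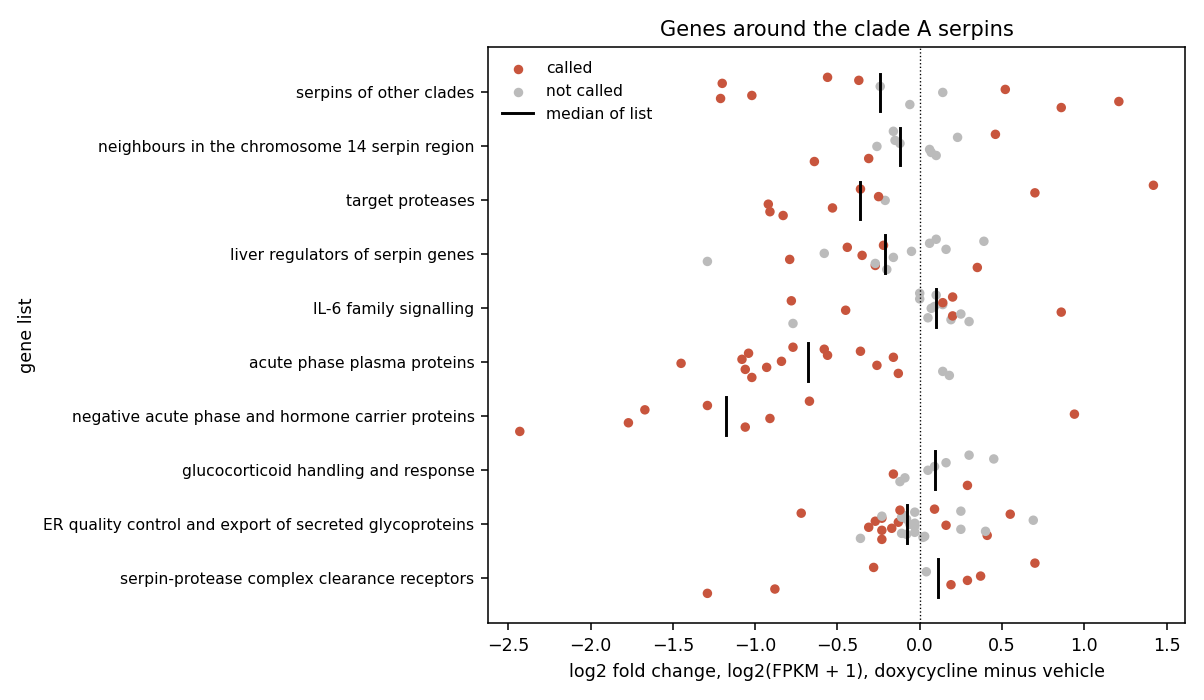
Log2 fold change on the log2(FPKM + 1) scale, doxycycline minus vehicle, of every tested gene in the 10 lists set beside the clade A serpins. Points are genes, coloured by whether limma called them, and black bars are list medians. The lists of plasma proteins lie to the left, with medians of -0.68 and -1.18, while the other lists have medians from -0.36 to 0.11.

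The genes whose profile over the 6 libraries was most like each member were found by the smallest root mean square difference of log2(FPKM + 1) after subtraction of the vehicle mean, among 10468 genes. SERPINA6 was closest to PLA2G12B (0.050), and then to APOH and CCL20 (0.077 each). SERPINA7 was closest to CIDEC, B4GAT1 and ASGR1 (0.047, 0.047 and 0.052). The scale compresses weak genes, so genes that are alike on it can differ in their ratio of FPKM. CIDEC fell from 2.98 ± 0.210 to 0.688 ± 0.136 FPKM, by more than the 2.60-fold of SERPINA7. SERPINA11 was closest to CPB2 (0.067), APOA5 (0.12) and GPHA2 (0.14), and SERPINA10 to INHBC (0.053), MOGAT2 (0.067) and C4BPB (0.068). SERPINA3 was closest to SNRPD2 (0.049), EFNA1 (0.052) and MOGAT2 (0.059), and SERPINA4 to PLEKHG6 (0.053), REEP6 (0.056) and VAV3 (0.065). SERPINA5 was closest to CASK, DPH5 and ATP5C1 (0.013, 0.014 and 0.017). SERPINA1 had no neighbour closer than LIPC (0.10), followed by VSNL1 (0.12) and CBLC (0.13). MOGAT2 was the only gene named for 2 members.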

How the data were processed

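RNA of 3 vehicle and 3 doxycycline libraries was sequenced after oligo(dT) selection with a strand-specific kit, per the labels' protocols. The deposited values are FPKM, which the authors computed for every library separately. FastQC, cutadapt, HISAT2 and StringTie and the build GRCh37 are named in the submitters' processing notes, and versions, options and annotation are not given in the sources used here. All 11461 entries are protein-coding; the entry with the highest mean represented each symbol, leaving 11456 genes.

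Genes with a mean of at least 1 FPKM (10469) were tested on log2(FPKM + 1) by limma 3.58.1 (R 4.3.3), group as the only term, with a variance trend, two-sided, Benjamini-Hochberg adjustment, called below 0.05. FPKM fold changes are ratios of means, and log2 fold changes understate those of weak genes. The filter takes the mean over all 6 libraries, so a gene under 1 FPKM in 1 group could pass it through the other group. The procedure was tested on simulated data, drawn from normal distributions independently for each gene and library. Such draws do not cover single outlying libraries. The labels do not say whether libraries came from separate cultures, so p-values measure the spread between these samples, which may be technical.

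The members and lists were chosen with earlier results of these data known. The rule names the members, all other serpins and region genes, the 4 called genes with the largest change of each other list, HNF4A, CEBPA, CEBPB, STAT3 and NR1I3, and 3 like genes per member. Some genes that count in these lists are not reported here. Alternatives were pseudocounts of 0.1 and 0.5, no filter or a minimum mean of 5 FPKM, median-ratio scaling, quantile normalization, a replicate block and leaving out each library. Figures were drawn with matplotlib 3.10.9.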

Additional observations from a re-analysis of the deposited data

How the results depend on the processing

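No fold change of a clade A serpin changed sign under any of the 13 alternatives run. SERPINA1 was called with a minimum mean of 5 FPKM, median-ratio scaling, quantile normalization and without doxycycline replicate 3. With a minimum mean of 5 FPKM, which tests fewer genes, the number called was 0 of 3 among neighbours of the cluster by limma (1 at an unadjusted p below 0.05), 5 of 5 among target proteases and 9 of 10 among acute phase proteins, and without a filter it was 6 of 14 among glucocorticoid genes. Leaving out single libraries gave 1 to 2 called glucocorticoid genes and 3 to 6 called genes of the interleukin 6 family list. Same-numbered libraries of the groups shared no strong deviation. Their deviations from their group means correlated at 0.015, -0.0321 and 0.0917. For differently numbered libraries the values ran from -0.0982 to 0.0836. This does not settle whether the libraries were paired. With the replicate block 2343 genes were called in place of 3012, with 6 of 8 clade A serpins and 1 glucocorticoid gene among them, and SERPINA5 and ASB2 were not called. All genes called were 2309 to 2376 when single libraries were left out, and 2203 with a minimum mean of 5 FPKM. The number of libraries, 3 per group, and the unknown depth limit the precision for weak members such as SERPINA4.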
